A study of Mus musculus with 10 samples.

Results

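Transcripts of cytotoxic T cells and natural killer (NK) cells were measured in libraries labelled as neutrophils from mouse squamous cell carcinomas. The 10 genes were chosen by name through the GENCODE M21 annotation, from 55385 mouse gene rows in the table. They are the T cell receptor subunit Cd3e, the coreceptors Cd8a, Cd8b1 and Cd4, the killing genes Gzma, Gzmb, Prf1 and Nkg7, the cytokine gene Ifng and the NK receptor Ncr1. All 10 were found and passed the filter on low counts, among 29648 genes tested.

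Host mice were of the CatchupIVM-red strain, whose neutrophils glow red because Tomato is tied to Ly6g, a gene of neutrophils. They carried grafts of parental carcinoma cells with low Sox2 (control) or of carcinoma cells with high Sox2 (Sox2Hi). Tumours stayed untreated (naive) or received an antibody to PDL1 together with a CD40 agonist (treated), and Tomato-positive cells were isolated for bulk RNA sequencing. The 10 libraries were 3 naive and 2 treated from control grafts, and 3 naive and 2 treated from Sox2Hi grafts. Library descriptions also carry C57 and GFP tags that the labels do not explain. The labels give no animal age, no dose or time of treatment, and no statement that replicates came from separate animals, so p-values measure only the spread between these libraries.

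Cytotoxic T cells and NK cells kill target cells by releasing granules. Perforin opens the way through the target membrane, and granzymes are the proteases that enter and start cell death. The same cells secrete interferon gamma, which binds the IFNGR1 and IFNGR2 chains and switches on genes such as Irf1 and Cxcl9. Antigen-presenting cells promote its secretion with interleukins 12, 15 and 18. T cells carry the CD3 complex with either CD8 or CD4, whereas NK cells lack surface CD3 and carry receptors such as NKp46, the product of Ncr1. In bulk RNA, fewer cells of a type and less RNA per cell cannot be told apart.

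Library totals ran from 13815734 to 22986193 reads, which are estimated counts. Olfactory and vomeronasal receptors are expected to be silent in these cells, yet reads lay over their genes. Their median per kb of exon was between 2.51 and 2.78 in control treated and between 4.48 and 8.85 in the other groups. This rate times a gene's exon length gives the background expected for it in each library. Levels are given as CPM, reads relative to a fixed library total, scaled by factors from 11274 abundant genes (mean of 5 CPM or more). On this scale the median log2 change of all genes tested was -0.72 for treatment in control tumours, 0.27 for treatment in Sox2Hi tumours, -0.37 between naive grafts, 0.47 between treated grafts and 0.85 for the interaction. With factors from all genes these medians were -0.30, 0.070, -0.081, 0.13 and 0.22. The 20 neutrophil genes summed to between 11518 and 19928 CPM in naive libraries, 21194 and 21457 CPM in Sox2Hi treated, and 44036 and 41501 CPM in control treated. The 10 cytotoxic genes summed to between 24.2 and 72.7 CPM in the 6 naive libraries and between 129 and 419.8 CPM in the 4 treated ones.

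**Figure D1:**
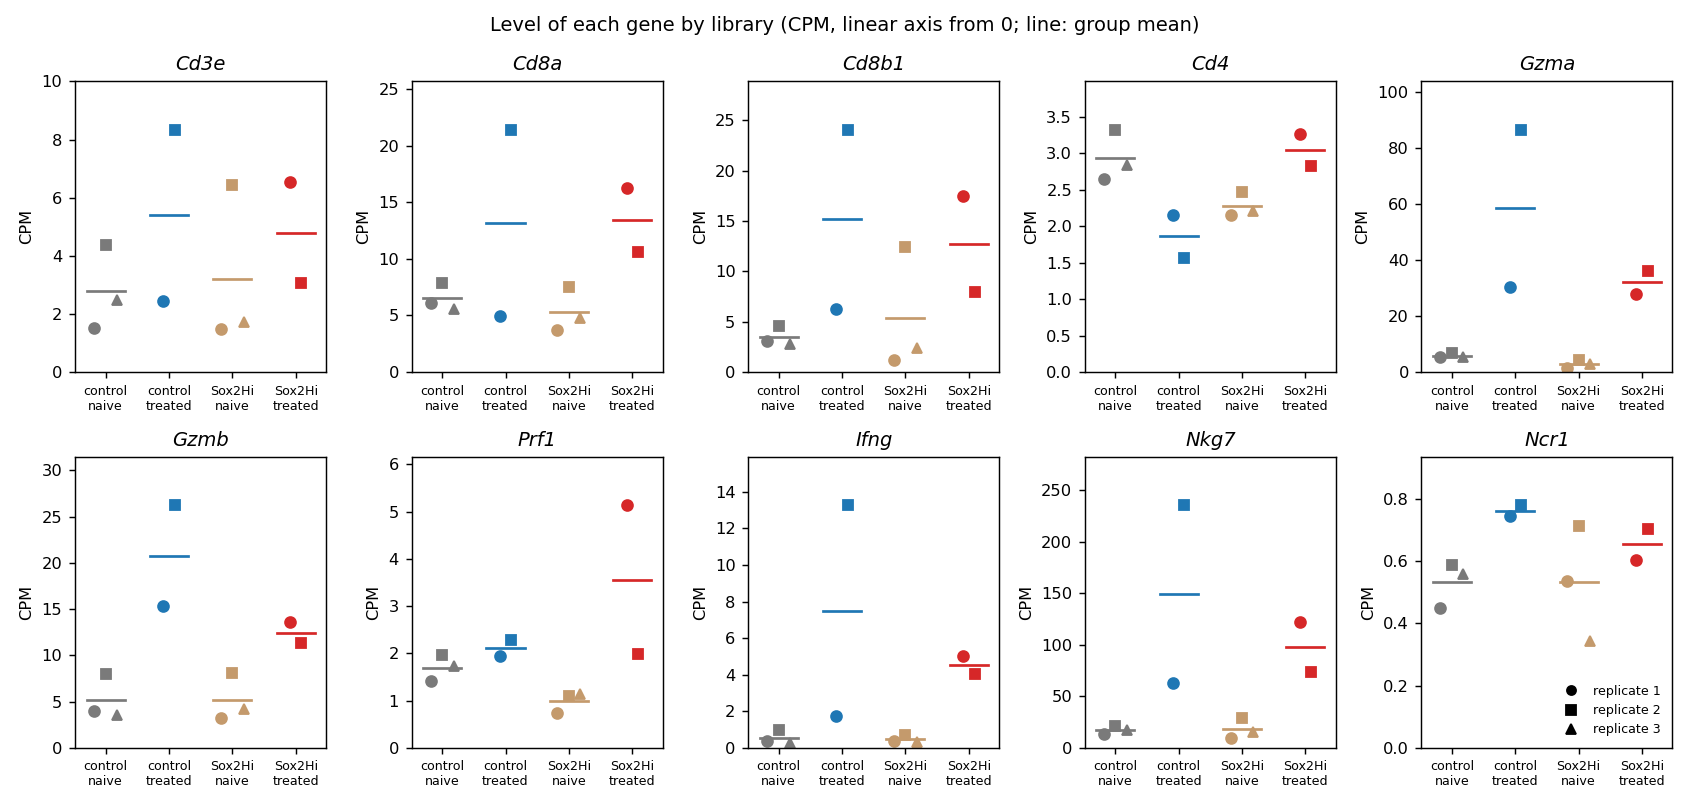
Level of each of the 10 genes in each library (CPM, linear axes from 0), by group, with marker shapes for replicates and lines for group means. Gzma, Ifng and Nkg7 were higher in all 4 treated libraries than in all 6 naive ones, while Cd4 stayed between 1.56 and 3.32 CPM.

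Per kb of exon and averaged over the 10 libraries, Nkg7 had the highest level at 65.5 CPM per kb, followed by Gzma at 20.6 and Gzmb at 6.79. Cd8b1 stood at 5.55, Cd8a at 2.44 and Ifng at 2.09 CPM per kb. Cd3e was at 0.941, Prf1 at 0.751, Cd4 at 0.631 and Ncr1 at 0.391 CPM per kb. The library ranges of neighbours in this order overlapped in every case. Of the 10 genes, 8 had their highest CPM in control treated replicate 2, the exceptions being Cd4 and Prf1.

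On treatment 5 of the 10 genes rose in control tumours, Gzma, Gzmb, Nkg7, Ifng and Cd8b1, and Cd4 fell (edgeR quasi-likelihood test, adjusted p under 0.05). Of all genes tested there, 48.6% were called, 12.5% higher and 36.1% lower. In Sox2Hi tumours 4 rose, Gzma, Nkg7, Ifng and Prf1, against 5.02% of all genes called, 3.36% higher and 1.66% lower. The median log2 change of the 10 genes was 1.52 in control and 1.30 in Sox2Hi tumours, beside the -0.72 and 0.27 of all genes. The treated libraries did not overlap the naive ones, on the higher side, for 6 of the 10 genes in control tumours and 7 in Sox2Hi tumours. The same held for 16.1% and 34.6% of all genes, respectively. On the lower side it held for 1 gene, Cd4, in control tumours and 0 in Sox2Hi tumours, beside 51.5% and 14.2% of all genes.

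Gzma (ENSMUSG00000023132, GRCm38 chromosome 13, 113093825 to 113100981, minus strand) encodes granzyme A, a protease of the killing granule. It had 95, 103 and 108 reads in naive and 409 and 1441 in treated control tumours, with 28, 75 and 56 (naive) and 462 and 565 (treated) in Sox2Hi tumours. Every treated library was above every naive one. Control tumours averaged 5.85 ± 0.75 CPM when naive (SD, n = 3) and 58.5 ± 39.6 when treated (SD, n = 2). Sox2Hi tumours averaged 2.75 ± 1.37 CPM when naive (SD, n = 3) and 32.1 ± 5.87 when treated (SD, n = 2). The gene rose by 3.32 on the log2 scale in control tumours (SE 0.42, edgeR adjusted p 0.00024) and by 3.55 in Sox2Hi tumours (SE 0.43, edgeR adjusted p 0.0011). It was called in both grafts under all 23 alternatives. Leaving out 1 library gave log2 changes from 2.40 to 3.85 in control and from 3.28 to 4.01 in Sox2Hi tumours.

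Gzmb (ENSMUSG00000015437, chromosome 14, 56258838 to 56262260, minus strand) encodes granzyme B, the granule protease that activates caspases. Its reads were 70, 123 and 69 in naive and 206 and 437 in treated control tumours, with 66, 148 and 86 (naive) and 225 and 176 (treated) in Sox2Hi tumours. The lowest treated library, at 11.3 CPM, was above the highest naive one, at 8.12 CPM. In control tumours Gzmb rose by 2.02 (SE 0.40, edgeR adjusted p 0.0028), and it was called under all 23 alternatives. In Sox2Hi tumours the log2 difference was 1.26 (SE 0.41), short of the threshold (edgeR adjusted p 0.091). There it was called under 5 of 23 alternatives, among them without Sox2Hi naive replicate 2 (1.79, edgeR adjusted p 0.033) and without control naive replicate 2 (1.27, edgeR adjusted p 0.0497), and by limma-voom (1.30, adjusted p 0.033).

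Nkg7 (ENSMUSG00000004612, chromosome 7, 43437073 to 43438249, plus strand) encodes a membrane protein of cytotoxic granules. Control tumours gave 237, 327 and 334 reads when naive and 844 and 3919 when treated. Sox2Hi tumours gave 192, 530 and 306 reads when naive and 2020 and 1146 when treated. Nkg7 was the most abundant of the 10 genes, from 36.6 to 129 times its expected background in naive libraries and from 227 to 1541 times in treated ones. It rose by 3.12 in control tumours (SE 0.51, edgeR adjusted p 0.0011) and by 2.46 in Sox2Hi tumours (SE 0.51, edgeR adjusted p 0.020). In control tumours the log2 change was 1.89 without treated replicate 2, still called. The call in Sox2Hi tumours was lost without naive replicate 3 (2.42), treated replicate 1 (2.05) or treated replicate 2 (2.77; edgeR adjusted p from 0.072 to 0.095).

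Prf1 (ENSMUSG00000037202, chromosome 10, 61297833 to 61304680, plus strand) encodes perforin. It had 25, 30 and 34 reads in naive and 26 and 38 in treated control tumours, with 15, 20 and 23 (naive) and 85 and 31 (treated) in Sox2Hi tumours. Only the first Sox2Hi treated library stood well above the others. Prf1 was between 1.06 and 2.01 times its expected background in naive libraries and between 2.17 and 5.41 times in treated ones. In Sox2Hi tumours it rose by 1.85 (SE 0.38, edgeR adjusted p 0.019). That call was lost without treated replicate 1 (1.01, edgeR adjusted p 0.21), without naive replicate 3 (2.03, edgeR adjusted p 0.052) and with the background subtracted (2.98, edgeR adjusted p 0.055). DESeq2, which gave Prf1 no adjusted p there, did not call it either. In control tumours the log2 difference was 0.32 (SE 0.38, edgeR adjusted p 0.49).

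Ifng (ENSMUSG00000055170, chromosome 10, 118441046 to 118445892, plus strand) encodes interferon gamma. It had 7, 15 and 5 reads in naive and 23 and 221 in treated control tumours, with 8, 13 and 6 (naive) and 83 and 63 (treated) in Sox2Hi tumours. The naive libraries held between 0.589 and 2.24 times the expected background, so Ifng was not clearly above it there. The treated libraries held 7.06 and 61.3 times it in control and 10.5 and 8.82 times it in Sox2Hi tumours. Another gene model, Gm49751, shares 2722 bases of the same strand with Ifng, and how its reads were divided is not known.

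From naive to treated, Ifng rose by 3.84 in control tumours (SE 0.71, edgeR adjusted p 0.0019) and by 3.28 in Sox2Hi tumours (SE 0.72, edgeR adjusted p 0.025). In control tumours the size rested on treated replicate 2, without which the log2 change was 1.71 and not called (edgeR adjusted p 0.058). In Sox2Hi tumours the call was lost without naive replicate 1, naive replicate 3, treated replicate 1 or treated replicate 2, with log2 changes from 3.11 to 3.42 (edgeR adjusted p from 0.057 to 0.14). It was also lost with the replicate number of the descriptions as a block (3.15, edgeR adjusted p 0.059).

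**Figure D2:**
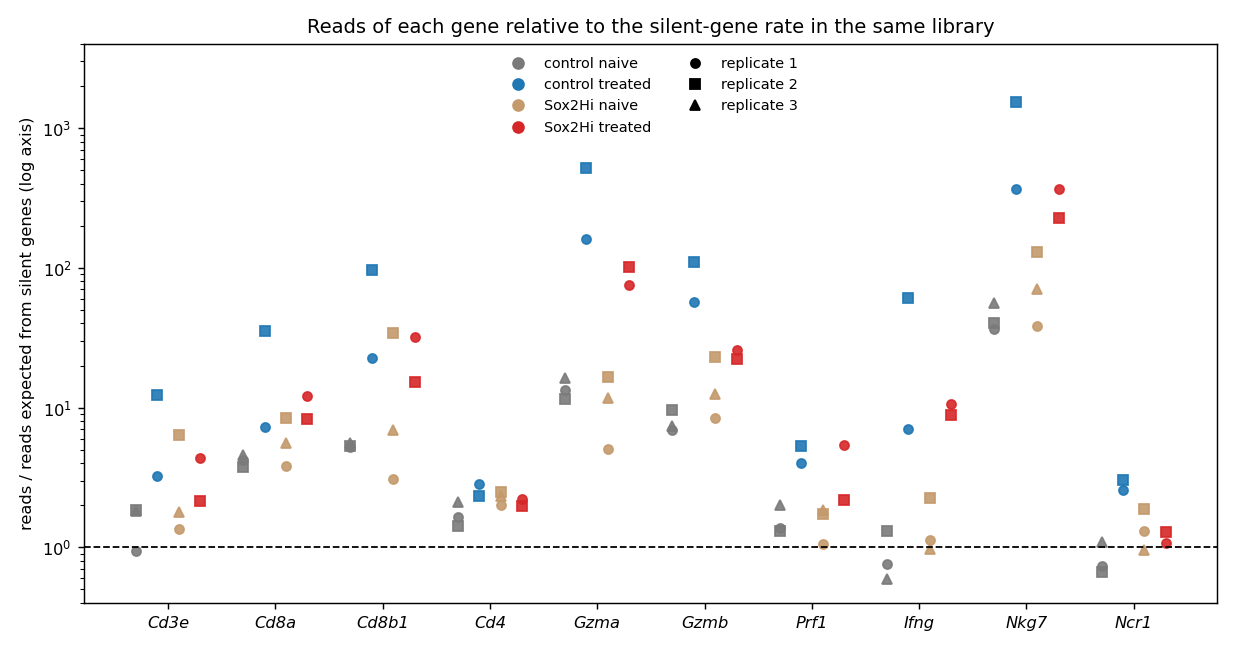
Reads of each gene divided by the reads expected from the silent-gene rate in the same library (log axis; dashed line, ratio of 1), with colours for groups and shapes for replicates. Nkg7 and Gzma lie far above the line, naive Ifng lies around it, and Cd4 lies between 1.43 and 2.86 in every library.

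Because Gzma, Gzmb and Ifng were high in the same treated libraries, the 250 bases before their RefSeq start sites are shown (RefSeq, GRCm38.p6, read along the gene's strand, 8 of the 10 genes having an entry). Capitals mark matches to 4 short motifs, chosen after the sequences were seen and searched on both strands. The Runx motif was searched as ACCACA and the T-box motif as AGGTGT. The AP-1 motif was searched as TGANTCA and the TATA box as TATAAA.
Ifng, chr10:118440796-118441045, plus strand: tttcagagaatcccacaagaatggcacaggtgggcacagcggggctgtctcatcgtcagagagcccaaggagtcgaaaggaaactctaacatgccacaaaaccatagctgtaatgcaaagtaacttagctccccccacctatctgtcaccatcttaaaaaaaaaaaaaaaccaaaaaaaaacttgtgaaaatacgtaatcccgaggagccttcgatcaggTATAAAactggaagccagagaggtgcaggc
Gzma, chr13:113100982-113101231, minus strand: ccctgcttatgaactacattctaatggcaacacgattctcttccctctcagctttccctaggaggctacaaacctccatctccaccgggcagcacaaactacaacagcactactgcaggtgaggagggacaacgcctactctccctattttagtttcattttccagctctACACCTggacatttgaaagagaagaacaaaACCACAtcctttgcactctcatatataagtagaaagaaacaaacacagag
Gzmb, chr14:56262335-56262584, minus strand: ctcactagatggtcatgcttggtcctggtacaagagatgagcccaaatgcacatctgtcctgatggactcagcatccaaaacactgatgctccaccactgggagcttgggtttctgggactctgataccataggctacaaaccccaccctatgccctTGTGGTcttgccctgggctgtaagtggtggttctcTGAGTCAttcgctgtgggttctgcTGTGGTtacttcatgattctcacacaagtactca

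The Ifng window held a TATA box match that begins 30 bases before the start. The Gzma window held 1 Runx match and 1 T-box match, and the Gzmb window held 2 Runx matches and 1 AP-1 match. No match was shared by all 3 windows. Among 32851 RefSeq promoter windows of the same length, 14% held the Runx letters, 11.8% the T-box letters, 6.75% the AP-1 letters and 12.4% the TATA box letters. A match describes the letters and is not a bound site.

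Among Cd3e, Cd8a, Cd8b1 and Cd4, Cd8b1 alone was called higher on treatment, in control tumours. Its interaction term was -0.88 (SE 1.08, edgeR adjusted p 0.54), so no difference between the grafts was shown. Cd8b1 (ENSMUSG00000053044, chromosome 6, 71322788 to 71337494, plus strand) encodes the beta chain of CD8, found mostly on T cells that use the alpha and beta chains together. Control tumours gave 55, 70 and 54 reads when naive and 84 and 401 when treated, and Sox2Hi tumours gave 25, 226 and 49 when naive and 290 and 124 when treated. Sox2Hi naive replicate 2 lay above 1 of the 2 Sox2Hi treated libraries. Cd8b1 rose by 2.14 in control tumours (SE 0.77, edgeR adjusted p 0.037) and was called under 13 of 23 alternatives. Without control treated replicate 2 it was 0.88 (edgeR adjusted p 0.46), and without control naive replicate 1, 2 or 3 it was 1.98, 2.37 and 1.86, none of them called (edgeR adjusted p 0.090, 0.066 and 0.10). With the replicate number of the titles as a block its log2 change was 1.66, and with that of the descriptions 2.24, both short of the threshold (edgeR adjusted p 0.077 and 0.064). In Sox2Hi tumours the log2 difference was 1.26 (SE 0.75, edgeR adjusted p 0.32), and without Sox2Hi naive replicate 2 it was 2.86 and called (edgeR adjusted p 0.027).

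Cd8a (ENSMUSG00000053977, chromosome 6, 71373427 to 71379173, plus strand) encodes the alpha chain of CD8, which some dendritic cells also carry. Its reads were 109, 121 and 110 in naive and 66 and 357 in treated control tumours, with 76, 137 and 97 (naive) and 269 and 165 (treated) in Sox2Hi tumours. The 2 control treated libraries lay on either side of the naive ones. The log2 differences were 1.02 in control (SE 0.47, edgeR adjusted p 0.084) and 1.33 in Sox2Hi tumours (SE 0.47, edgeR adjusted p 0.12), and neither was called. In control tumours the value was 1.68 and called without treated replicate 1 (edgeR adjusted p 0.0071) and -0.39 without treated replicate 2. It was also called there with factors from all genes (1.49, edgeR adjusted p 0.035), and in each graft 5 of 23 alternatives called it. Its interaction was 0.31 (SE 0.67, edgeR adjusted p 0.73), and 1.72 and called without control treated replicate 2 (edgeR adjusted p 0.043).

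Cd3e (ENSMUSG00000032093, chromosome 9, 44998740 to 45009627, minus strand) encodes the epsilon chain of CD3. It had 27, 67 and 49 reads in naive and 33 and 139 in treated control tumours, with 30, 117 and 35 (naive) and 108 and 48 (treated) in Sox2Hi tumours. Treated and naive libraries overlapped in both grafts. Expected background equalled 33.8% of all its reads, and an antisense gene model, Gm48719, shares 3557 bases with it and a same-strand model, Gm48720, 1206 bases. The log2 differences were 0.98 in control (SE 0.66, edgeR adjusted p 0.22) and 0.60 in Sox2Hi tumours (SE 0.65, edgeR adjusted p 0.59).

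Cd4 (ENSMUSG00000023274, chromosome 6, 124864692 to 124888221, minus strand) encodes the coreceptor of helper T cells. It had 47, 51 and 56 reads in naive and 29 and 26 in treated control tumours, with 44, 45 and 45 (naive) and 54 and 44 (treated) in Sox2Hi tumours. Expected background equalled 49.5% of its reads over the 10 libraries. It fell by 0.66 in control tumours (SE 0.26, edgeR adjusted p 0.048), where the 1135 silent receptor genes tested had a median of -1.23. For Sox2Hi tumours the log2 difference was 0.42 (SE 0.24, edgeR adjusted p 0.31), beside a silent-gene median of 0.58. The fall in control tumours was called under 9 of 22 alternatives. It was -0.25 with factors from all genes and -0.24 with the background subtracted (edgeR adjusted p 0.39 and 0.70), and -0.42 without control treated replicate 2 (edgeR adjusted p 0.29). With the replicate number of the titles as a block it was -0.69, not called (edgeR adjusted p 0.061).

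Ncr1 (ENSMUSG00000062524, chromosome 7, 4337724 to 4345164, plus strand) had between 7 and 13 reads in every library. The counts were 8, 9 and 11 in naive and 10 and 13 in treated control tumours, with 11, 13 and 7 (naive) and 10 and 11 (treated) in Sox2Hi tumours. Expected background equalled 80.9% of these reads over the 10 libraries. The reads were 2.58 and 3.03 times background in control treated libraries and 0.661 to 1.89 times in the other 8. The log2 differences on treatment were 0.52 in control (SE 0.43) and 0.30 in Sox2Hi tumours (SE 0.43; edgeR adjusted p 0.31 and 0.69). With RLE factors, computed from the genes tested, Ncr1 was called higher in control tumours (1.12, edgeR adjusted p 0.049). Only 1 of 21 alternatives, this one, called it. DESeq2, which computes its own size factors, did not.

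**Figure D3:**
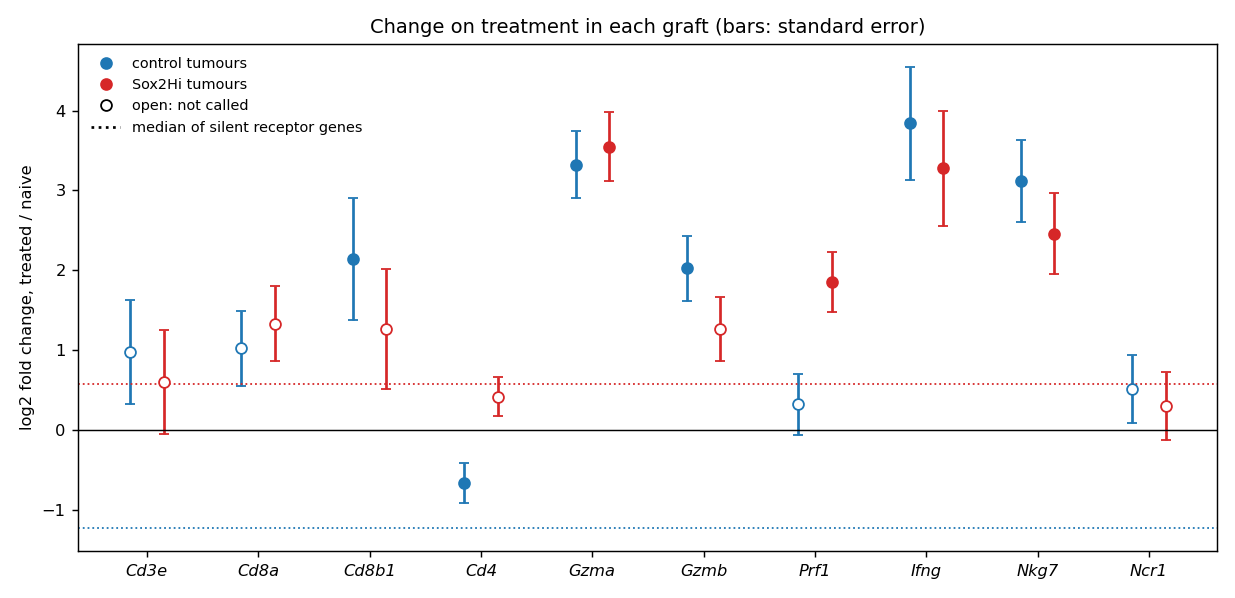
Log2 change from naive to treated for each gene in control (blue) and Sox2Hi (red) tumours, with bars for the standard error, filled points for called genes and dotted lines for the median of silent receptor genes. Gzma, Ifng and Nkg7 are filled and above 2 in both grafts, and Cd4 in control tumours lies between 0 and the silent-gene median of -1.23.

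Between the grafts, 0 of the 10 genes were called in naive tumours and 0 in treated tumours by edgeR, beside 5.8% and 13% of all genes. Of all genes, 0.911% were called higher and 4.89% lower in naive Sox2Hi tumours, and 9.69% higher and 3.29% lower in treated ones. At an unadjusted p under 0.05 there was 1 in each, Gzma in naive and Cd4 in treated tumours. Of the 29648 genes tested, 9250 in naive and 10546 in treated tumours were under it. DESeq2 called 0 in naive tumours and 2 in treated ones, Gzma and Gzmb, both lower in Sox2Hi (-1.39 and -1.26, DESeq2 adjusted p 0.024 and 0.028). DESeq2 called 1.13% of all genes higher and 9.21% lower between treated grafts, and 7.33% and 0.756% between naive grafts. Limma-voom called 1, lower, in naive tumours and 0 in treated ones, beside 25.3% of all genes lower in naive tumours.

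Gzma showed the largest naive difference of the 10 genes. Its 3 Sox2Hi naive libraries, at 1.37, 4.12 and 2.75 CPM, all lay below the 3 control naive libraries, at 5.35, 6.71 and 5.48 CPM. The log2 difference was -1.09 (SE 0.41, edgeR adjusted p 0.099). Blocking on the replicate number in the titles gave -1.18, which was called (edgeR adjusted p 0.037), blocking on that in the descriptions gave -1.15, not called (edgeR adjusted p 0.10), and in the naive libraries alone with the same block it was -1.19 (edgeR adjusted p 0.0067). Limma-voom also called it (-1.09, adjusted p 0.046). These were the 3 of 24 alternatives that called it. The naive grafts did not overlap, Sox2Hi being lower, for 3 of the 10 genes (Gzma, Prf1 and Cd4) and for 30.1% of all genes. None did so on the higher side, beside 7.41% of all genes. The log2 differences of the other 9 genes ran from -0.78 to 0.62, beside silent-gene and all-gene medians of -0.82 and -0.37.

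In treated tumours the log2 difference between Sox2Hi and control was -0.87 for Gzma (SE 0.44), -0.74 for Gzmb (SE 0.44), -0.74 for Ifng (SE 0.66) and -0.61 for Nkg7 (SE 0.55). The edgeR adjusted p-values were 0.18, 0.24, 0.43 and 0.43. Intervals of 2 standard errors ran from -1.75 to 0.016 for Gzma and from -2.07 to 0.59 for Ifng, so differences of either sign were within them for Ifng. Without control treated replicate 2 the values were 0.064 for Gzma, 1.39 for Ifng and 0.63 for Nkg7, none called. For Cd4 the difference was 0.72 (SE 0.28, edgeR adjusted p 0.092), beside a silent-gene median of 0.98. Sox2Hi treated libraries did not overlap control treated ones for 1 gene on the higher side, Cd4, and 2 on the lower side, Gzmb and Ncr1. Those shares were 48.3% and 16.3% of all genes.

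By the interaction term 2 of the 10 genes were called, Cd4 (1.08, SE 0.35, edgeR adjusted p 0.036) and Prf1 (1.53, SE 0.54, edgeR adjusted p 0.049), both higher in Sox2Hi. Of all genes tested, 31.2% were called for this term, 26.8% higher and 4.42% lower, so 2 of 10 is below the share of all genes. DESeq2 called neither gene but called Gzmb, with a smaller response in Sox2Hi tumours, and limma-voom called Cd4 alone. The silent receptor genes had a median of 1.82 here, above both values, and background made up 49.5% and 42.8% of the reads of Cd4 and Prf1. With the background subtracted the values were 0.60 for Cd4 and 1.66 for Prf1 and neither was called (edgeR adjusted p 0.59 and 0.41), so the Prf1 value was no smaller. With either replicate block Prf1 was not called (1.51 and 1.49, edgeR adjusted p 0.067 and 0.098). With factors from all genes the values were 0.46 and 0.89, also not called (edgeR adjusted p 0.26 and 0.22). For Ifng the interaction was -0.56 (SE 1.07, edgeR adjusted p 0.70), and an interval of 2 standard errors from -2.70 to 1.58 shows that the libraries could not place it.

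Reads of each gene were next set against those of the CD3 genes (Cd3d, Cd3e, Cd3g and Cd247) in the same library, a ratio that does not depend on the scaling between libraries. This sum was taken after Cd3e alone was found near background. The CD3 genes had 342, 483 and 438 reads in naive and 499 and 2330 in treated control tumours, with 309, 1050 and 347 (naive) and 1342 and 719 (treated) in Sox2Hi tumours. Sox2Hi naive replicate 2 was thus the naive library with the most CD3 reads. It also had the highest sum of the 10 B and plasma cell genes, 777 CPM against 72.6 to 181 CPM in the other naive libraries.

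Nkg7 had between 50.5 and 88.2 reads per 100 CD3 reads in the 6 naive libraries. In the treated ones it had 169 and 168 in control and 151 and 159 in Sox2Hi. These 4 values lay within a narrow band, although CD3 reads in the same libraries ran from 499 to 2330. Ifng had between 1.14 and 3.11 reads per 100 CD3 reads in naive libraries, 4.61 and 9.48 in control treated, and 6.18 and 8.76 in Sox2Hi treated. For Gzma the naive values were 27.8, 21.3 and 24.7 in control and 9.06, 7.14 and 16.1 in Sox2Hi tumours. Treated libraries had 82.0 and 61.8 in control and 34.4 and 78.6 in Sox2Hi tumours. Each of these 3 genes was thus higher relative to CD3 in all 4 treated libraries. Expected background made up 102.7 of the 342 CD3 reads in control naive replicate 1 and 40.3 of the 2330 in control treated replicate 2. With it taken off both terms, an alternative chosen after seeing the data, Ifng and Nkg7 remained higher in all 4 treated libraries. Gzma did not: control naive replicate 1 had 36.7 and Sox2Hi treated replicate 1 had 36.4 per 100 CD3 reads. With each gene floored at 0 these were 34.3 and 36.4.

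Gzmb, at 14.1 to 25.5 reads per 100 CD3 reads in naive libraries, overlapped the treated range of 16.8 to 41.3. Cd8b1 ran from 8.09 to 21.5 in naive and from 16.8 to 21.6 in treated libraries. Cd4 ran from 4.29 to 14.2 in naive and from 1.12 to 6.12 in treated libraries. Scaled for length and set against Cd3e alone, Ifng stood at 0.321 to 0.840 in naive and 2.2 to 5.01 in treated libraries, and Nkg7 at 20.2 to 39.2 and 83.5 to 126. On that scale Gzma ran from 2.60 to 14.3 in naive and from 17.3 to 50.3 in treated libraries. In naive libraries Ifng lay at 0.589 to 2.24 times expected background and Cd3e at 0.934 to 6.40 times, so background is a large share of the reads in many of the naive Ifng ratios. These ratios are descriptions, with no test.

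**Figure D4:**
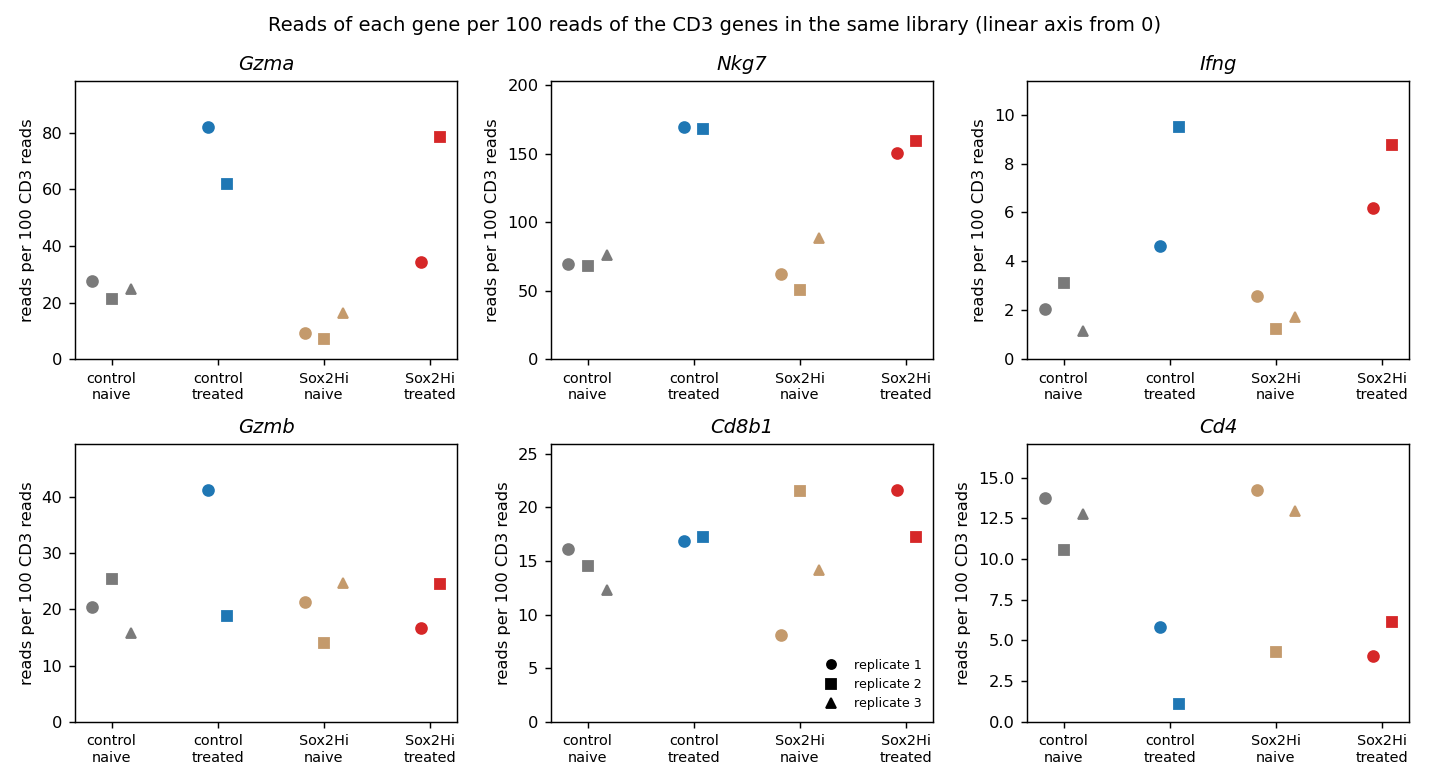
Reads of 6 genes per 100 reads of the CD3 genes in the same library (linear axes from 0), by group, with shapes for replicates. For Gzma, Nkg7 and Ifng all 4 treated libraries lie above all 6 naive ones, and for Gzmb, Cd8b1 and Cd4 the ranges overlap.

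Of 16 other genes of the alpha-beta T cell receptor and its signalling, 4 rose on treatment in control tumours and 0 in Sox2Hi tumours, with median log2 changes of 1.28 and 0.44. Of all genes tested, 12.5% and 3.36% were called higher in these comparisons, and 36.1% and 1.66% lower. List counts on treatment below stand beside these shares. Those between grafts stand beside 0.911% higher and 4.89% lower in naive tumours, and 9.69% and 3.29% in treated ones. For the interaction the shares were 26.8% higher and 4.42% lower. The 4 genes that rose were Trbc2 (2.64, SE 0.69), Cd3g (2.37, SE 0.62), Cd28 (1.87, SE 0.53) and Cd3d (1.57, SE 0.53; edgeR adjusted p from 0.0099 to 0.029). They encode a receptor constant region, CD3 chains and a costimulatory receptor. Without control treated replicate 2, Trbc2 was 1.89, Cd3g was 1.15, Cd28 was 0.80 and Cd3d was 0.26, none called. Of 12 gamma-delta T cell genes, 10 were tested and 1 was called, higher, in control tumours. This list summed to between 8.80 and 17.0 CPM in every library.

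Among 17 genes typical of NK cells, most of them receptors and transcription factors, 16 were tested. This list also holds the granzyme gene Gzmk, which is counted again among the granule genes. In control tumours 6 rose and 3 fell, and in Sox2Hi tumours 3 rose and 1 fell. Klrk1, which encodes the activating receptor NKG2D of NK and CD8 T cells, rose by 2.2 in control (SE 0.28, edgeR adjusted p 0.00027) and 2.15 in Sox2Hi tumours (SE 0.29, edgeR adjusted p 0.0019). Klrd1, which encodes CD94, rose by 2.73 and 1.93, and its partner Klrc1 by 2.36 and 1.91. In Sox2Hi tumours these 2 calls held under 12 of 22 and 13 of 23 alternatives and were lost with factors from all genes (1.72 and 1.70, edgeR adjusted p 0.073 and 0.072). Without Sox2Hi treated replicate 1 they were 1.09 and 1.29. In control tumours without treated replicate 2 they were 1.68 and 1.14, both still called. Klra4 fell by 2.06 in control and 2.62 in Sox2Hi tumours. Between naive grafts 1 gene of the list was called higher in Sox2Hi tumours, Klra4 (1.01, edgeR adjusted p 0.047), and 1 lower, Klrc2 (-1.13, edgeR adjusted p 0.039). These calls held under 11 of 24 and 8 of 23 alternatives. For the interaction 1 gene was called, Klrc2, on the higher side (1.49, edgeR adjusted p 0.022, under 15 of 21 alternatives), and it was not called with factors from all genes (0.85, edgeR adjusted p 0.10). Klra and Klrc genes have close paralogs, so the division of reads among them is uncertain.

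Of 18 other granule genes, 8 rose and 1 fell in control tumours and 3 rose in Sox2Hi tumours. Fasl, the ligand of the death receptor Fas, rose by 2.19 in control (SE 0.42, edgeR adjusted p 0.0024) and 1.68 in Sox2Hi tumours (SE 0.42, edgeR adjusted p 0.040). In control tumours Fasl was 1.24, still called, without treated replicate 2. The Sox2Hi call of Fasl was lost with factors from all genes (1.48, edgeR adjusted p 0.079) and held under 13 of 23 alternatives. Ctsc, the protease that activates granzymes and also the serine proteases of neutrophils, rose by 2.05 and 1.24, and was 0.58 in Sox2Hi tumours without treated replicate 2. Gzmk rose by 2.28 in control tumours and was 1.32, not called, without control treated replicate 2. Stx11 and Rab27a take part in granule release in several kinds of blood cell. Rab27a rose by 1.57 in control and 1.17 in Sox2Hi tumours. Stx11 rose by 1.93 in control tumours and differed by 0.83 in Sox2Hi tumours (edgeR adjusted p 0.063). Stx11 was lower in Sox2Hi than control treated tumours (-0.93, edgeR adjusted p 0.042), and its response was smaller by the interaction term (-1.10, edgeR adjusted p 0.031), under 11 of 23 and 13 of 22 alternatives. Each of these 2 calls was lost without either Sox2Hi treated library. Between naive grafts 1 granule gene was called higher in Sox2Hi tumours, Lamp1 (0.95, edgeR adjusted p 0.038), and 1 lower. For the interaction 1 granule gene was called higher and 2 lower, Stx11 and Lamp1 (-1.23 for Lamp1, edgeR adjusted p 0.019).

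Of 17 genes of T cell activation and checkpoints, 7 rose and 1 fell in control tumours, and 2 rose and 1 fell in Sox2Hi tumours. Ccl5, a chemokine of activated T and NK cells and of other cells, rose by 3.17 in control (SE 0.42) and 2.90 in Sox2Hi tumours (SE 0.42; edgeR adjusted p 0.00032 and 0.0029). Without Sox2Hi treated replicate 2 the latter was 1.90, still called. Cxcr6, a homing receptor of T cells in tissue, rose by 2.21 and 1.78, the latter under 11 of 23 alternatives and not with factors from all genes (1.57, edgeR adjusted p 0.099). In control tumours Cxcr6 was called under 22 of 23 alternatives, with log2 changes from 1.32 to 2.85. The gene that fell in Sox2Hi tumours was Cxcr3 (-1.09, SE 0.25, edgeR adjusted p 0.031). Cxcr3 averaged 10.4 CPM in naive and 4.87 CPM in treated Sox2Hi tumours, and 8.88 and 5.39 CPM in control tumours. Tnfrsf18 rose by 2.01 in control tumours, and Cd27 by 1.34 (edgeR adjusted p 0.046), the latter not called without control treated replicate 2 (0.66). Between naive grafts 1 gene of the list was called, Tnfrsf9, higher in Sox2Hi tumours (0.67, edgeR adjusted p 0.038). It was also the 1 gene called for the interaction, on the lower side (-1.09, edgeR adjusted p 0.0087).

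Of 17 genes that promote interferon gamma production, 7 rose and 2 fell on treatment in control tumours and 2 rose in Sox2Hi tumours. Between treated grafts 1 was called higher and 5 lower in Sox2Hi tumours, beside 9.69% and 3.29% of all genes. For the interaction 1 was called higher and 1 lower, beside 26.8% and 4.42% of all genes. Il12a, which encodes the p35 subunit of interleukin 12, had 124, 125 and 130 reads in naive and 981 and 1313 in treated control tumours, with 147, 147 and 126 (naive) and 351 and 547 (treated) in Sox2Hi tumours. The 4 groups separated except for the 2 naive ones. It rose by 3.39 in control (SE 0.22, edgeR adjusted p 5.0e-06) and 1.98 in Sox2Hi tumours (SE 0.22, edgeR adjusted p 0.00064). In treated tumours it was lower in Sox2Hi (-1.43, SE 0.24, edgeR adjusted p 0.013), and its response was smaller there by the interaction term (-1.41, SE 0.31, edgeR adjusted p 0.0096). The difference between treated grafts was not called without control treated replicate 2 (-1.39) or Sox2Hi treated replicate 1 (-1.11; edgeR adjusted p 0.060 and 0.075).

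Il12b, which encodes the p40 subunit, had 28 reads in control treated replicate 1 and 428 in replicate 2, against 51, 32 and 140 in control naive. Its log2 differences on treatment were 1.78 in control (SE 0.70, edgeR adjusted p 0.051) and 1.05 in Sox2Hi tumours (SE 0.72, edgeR adjusted p 0.38). Il15 rose by 1.63 and Il18 by 1.37 in control tumours (edgeR adjusted p 0.00066 and 0.0034). In Sox2Hi tumours their differences were 0.91 and 0.95 (edgeR adjusted p 0.054 and 0.077). Both were lower in Sox2Hi than in control treated tumours, Il15 by -0.90 and Il18 by -1.12 (edgeR adjusted p 0.04998 and 0.042). Those 2 calls were lost without any 1 of the 4 treated libraries, and held under 9 of 23 and 13 of 23 alternatives. Il15ra rose by 2.21 and 1.70, and Il27 by 2.68 in control tumours. Tbx21, which encodes the T-bet factor of interferon gamma-producing lymphocytes, had between 8 and 26 reads per library, with differences of -0.68 and 0.89 (edgeR adjusted p 0.18 and 0.19).

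Among 18 genes of the interferon gamma receptor and its targets, 16 rose in control and 11 in Sox2Hi tumours on treatment, and none fell. Type I interferon also induces many of them. The receptor chain gene Ifngr1 rose by 1.31 in control tumours (SE 0.25) and Ifngr2 by 0.84 (SE 0.19; edgeR adjusted p 0.0022 and 0.0054), and Ifngr2 was not called without control treated replicate 1 (0.57). Differences in Sox2Hi tumours were 0.58 and 0.26 (edgeR adjusted p 0.18 and 0.43). Irf1, a transcription factor gene, rose by 1.69 and 1.43. The chemokine genes Cxcl9 and Cxcl10 rose by 1.71 and 2.61 in control and by 2.36 and 2.82 in Sox2Hi tumours, and Gbp2 rose by 2.67 and 2.28. Between naive grafts 1 gene of the list was called, Cxcl9, lower in Sox2Hi tumours (-1.09, SE 0.29, edgeR adjusted p 0.047), a call that held under 8 of 24 alternatives and not with factors from all genes (-0.81, edgeR adjusted p 0.12). In treated tumours Irgm1 (-0.91), Cd274 (-0.86) and Jak2 (-0.74) were called lower with the Sox2Hi graft and 0 genes of the list higher, with edgeR adjusted p from 0.036 to 0.046. These held under 11, 10 and 8 of 23 alternatives. Of all genes, 9.69% were called higher and 3.29% lower there, and 4.18% and 9.57% with factors from all genes. For the interaction Ido1 was called on the higher side (2.39), and Jak2 (-0.85) and Jak1 (-0.74) on the lower side, with edgeR adjusted p from 0.039 to 0.050. These held under 6, 9 and 7 of 22 alternatives. Of all genes, 26.8% were called higher and 4.42% lower for this term.

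Irf1 did not follow Ifng across the 2 control treated libraries. Replicate 1, with 23 Ifng reads, had 279.7 CPM of Irf1, and replicate 2, with 221 Ifng reads, had 148 CPM. Cxcl9 stood the other way, at 237 and 323 CPM. All 18 genes of the receptor and target list summed to 19890 CPM in replicate 1 and 15945 CPM in replicate 2. With 2 libraries these are single values, and a link between Ifng and these genes was not tested.

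Over the 10 libraries, Ifng was most like Fasl (r = 0.973), Klrc1 (0.960) and Nkg7 (0.959) among 16224 genes compared, by Pearson correlation of log2(CPM + 1). Gzma was most like Klrk1 (0.988), Nkg7 like Fasl (0.986), Cd8b1 like Cd96 (0.988), Cd8a like Cd3d (0.939), Gzmb like Tnfrsf18 (0.969) and Cd3e like Icos (0.982). Prf1 was most like Haghl (0.916), and Cd4 was most like Olfr149 (0.967), one of the silent receptor genes. Ncr1 was too low to enter. These correlations are descriptions over libraries that share group structure, depth and background.

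Genes of other cells were counted over the same comparisons, in which 12.5% of all genes were called higher and 36.1% lower in control tumours, and 3.36% and 1.66% in Sox2Hi tumours. Of 19 neutrophil genes tested, 17 rose in control and 10 in Sox2Hi tumours on treatment. Of 12 keratinocyte genes, 7 fell in control and 3 in Sox2Hi tumours, and of 12 fibroblast and endothelial genes 10 fell in control and 0 in Sox2Hi tumours. The erythroid and platelet list had 5 and 3 of 9 tested genes lower, and the mast cell and basophil list 8 lower and 2 higher of 13 in control and 1 each in Sox2Hi tumours. Of 12 macrophage genes, 2 rose and 1 fell in control and 1 rose in Sox2Hi tumours. Dendritic cell genes, also 12, had 1 higher and 3 lower in control and 1 lower in Sox2Hi tumours, and of 10 B and plasma cell genes 2 fell in control and 0 in Sox2Hi tumours. Several of these counts, such as those of B and plasma cell and dendritic cell genes in control tumours, lie below the share of all genes. The part of these changes in the values of the cytotoxic genes was not tested.

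The libraries also differed in reads of Ddx3y, a gene of the Y chromosome. It had at most 8 reads in control naive replicate 1, control treated replicate 1, Sox2Hi naive replicate 1 and Sox2Hi treated replicate 2, and at least 1007 in the other 6. In each group the library without Ddx3y had the fewest CD3 reads. A fit with this difference as a covariate called 6 of the 10 genes higher on treatment in control and 6 in Sox2Hi tumours, beside 12.0% and 2.81% of all genes. Those were Cd8a, Gzma, Gzmb, Ifng and Nkg7 in both, with Cd8b1 in control and Prf1 in Sox2Hi tumours.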

How the data were processed

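RNA of Tomato-positive cells was measured in 10 bulk libraries. The deposited table holds estimated counts per gene in whole numbers. Kallisto 0.44.0 and mm10 are named per the submitters' processing notes, without a role. The annotation, the strand setting and the step from transcripts to genes are not given in the sources used here. All 4 values of over 6 digits end in 0, so large values may be rounded. The table has 55481 rows, 55385 of them mouse genes, of which 55144 matched a GENCODE M21 symbol. The other 96 rows, up to 0.00277% of the counts, were left out. Libraries were grouped by their labels.

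Genes were kept by filterByExpr (29648). All 10 libraries entered 1 edgeR quasi-likelihood fit (edgeR 4.0.16, R 4.3.3) with 5 contrasts and Benjamini-Hochberg adjustment over all kept genes, and a gene was called at an adjusted p under 0.05. Trimmed-mean (TMM) factors came from the 11274 genes with a mean of 5 CPM or more. The genes, the gene lists and this scaling were chosen with earlier results of these data known. Named genes were the 10 cytotoxic genes, 8 further genes whatever their result, and genes among the up to 4 called genes with the largest change in each T, NK and interferon list. Other lists are given as counts. The list of naive and memory T cell genes is not reported here. The fit was also run on simulated counts that held no group differences in background, and no result is drawn from that run. Alternatives were other factors, filters, tools (DESeq2 1.42.0, limma 3.58.1), blocks, background subtraction, a Ddx3y covariate and leaving out each library.

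Replicate numbers in the titles were checked by correlating deviations from group means. The 3 same-numbered naive pairs gave r of 0.273, 0.324 and 0.474, each over 0.1. Same-numbered pairs with a treated library ran from -0.280 to 0.247, so the numbering did not mark like libraries throughout. The reported fit has no block, and blocked values are given where they change a call. The labels leave the meaning of the numbers unstated. Replicates of a group differed by more than sampling noise, with a chi-square per degree of freedom of at least 12.5.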

Additional observations from a re-analysis of the deposited data

Results flagged for a closer look

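The interaction term, which compares the response to treatment between the grafts, was called for Cd4 and Prf1, 2 of 10 genes, beside 31.2% of all genes. For Cd4 the difference was 1.08 on the log2 scale, with a log2 change of -0.66 in control and 0.42 in Sox2Hi tumours. For Prf1 it was 1.53, from changes of 0.32 and 1.85. The median of all genes for this term was 0.85 and that of silent receptor genes 1.82, and expected background equalled 49.5% of Cd4 reads and 42.8% of Prf1 reads. Cd4 was called under 13 of 21 alternatives, with values from 0.20 to 1.45, and Prf1 under 7 of 21, with values from 0.63 to 2.13. With the background subtracted the values were 0.60 for Cd4 and 1.66 for Prf1, neither called. With either replicate block Cd4 was called and Prf1, at 1.51 and 1.49, was not. Without Sox2Hi treated replicate 1, Prf1 was 0.69 and Cd4 was 0.98, and without control treated replicate 2 they were 1.64 and 0.84, none called.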

How the results depend on the processing

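In control tumours 6 of the 10 genes were called on treatment, 3 to 7 with 1 library left out, and 3 without both control treated replicate 2 and Sox2Hi naive replicate 2, a pair chosen after seeing the data. In Sox2Hi tumours the 4 called became 7 without that pair and 1 to 6 with 1 library left out. With only genes of at least 5 CPM 2 were called, Gzma and Nkg7, because Ifng and Prf1 were not among the 5 genes tested. Between naive grafts the 0 called became 1 with limma-voom, with the replicate block by title number and in the naive groups alone with that block. It stayed 0 with the replicate block by description number and with each library left out. Between treated grafts the 0 became 1 with library totals and 2 with DESeq2. For the interaction the 2 called, Cd4 and Prf1, became 0 with all-gene factors, with all genes that have a count and with background subtracted. The count was 0 with genes of at least 5 CPM, where neither was tested. It was 1, Cd4, with limma-voom and either replicate block, 1, Gzmb, with RLE factors and DESeq2, and 1, Cd8a, without the pair of libraries. It was 0 to 2 with 1 library left out, and without control treated replicate 2 the gene called was Cd8a. Shares of all genes called moved too. Higher and lower, they were 4.50% and 15.7% between naive grafts in the naive groups with the block, 1.66% and 6.72% with that block in all groups, and 35.9% and 1.04% between treated grafts with library totals. For the interaction they were 11.3% and 16.2% with all-gene factors, 7.40% and 21.1% with RLE factors, and 8.93% and 1.19% without the pair of libraries. With 1 library left out, the shares called higher and lower ran from 8.65% to 12.3% and from 14.6% to 44.4% on treatment in control tumours, from 0.511% to 6.14% and from 0.0403% to 3.36% in Sox2Hi tumours, from 0.0103% to 1.71% and from 0% to 19.6% between naive grafts, from 0.142% to 18.1% and from 0.0124% to 4.90% between treated grafts, and from 11.1% to 37.3% and from 0.632% to 4.53% for the interaction. With genes of at least 5 CPM 11.8% were called higher in Sox2Hi tumours. Without the pair, 8.33% and 12.2% were called on treatment in control and 1.79% and 0.818% in Sox2Hi tumours.

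Some values that were not called changed sign, and the cause was not tested. With 1 library left out, Cd3e ran from -0.15 to 1.55 in control and from -0.045 to 1.64 in Sox2Hi tumours, Cd8a from -0.39 to 1.68 in control tumours, and Il12b from -0.94 to 2.62. Between treated grafts Gzma ran from -1.41 to 0.064, Ifng from -1.53 to 1.39 and Nkg7 from -1.24 to 0.63, and the Ifng interaction ran from -1.35 to 1.56. Without the pair of libraries these were -0.15 for Cd3e, -0.39 for Cd8a, -0.95 for Il12b, 0.065 for Gzma, 1.39 for Ifng, 0.63 for Nkg7 and 1.98 for the Ifng interaction. The Cd8a interaction, 0.31, was -0.36 with all-gene factors, -0.57 with RLE factors and -0.62 with DESeq2, ran from -0.36 to 1.72 with 1 library left out, and was 2.05 without the pair. With library totals Prf1 was -0.32 and Ncr1 -0.12 in control tumours, and Ifngr2 was -0.014 in Sox2Hi tumours. Over all 50 results of the 10 genes, 99 of 1113 values differed in sign from the reported one, in 29 results, 0 of which had been called.

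With all-gene factors, 5545 genes were called higher and 4533 lower on treatment in control tumours, against 3704 and 10702. The same counts were 531 and 539 against 996 and 492 in Sox2Hi tumours, 492 and 62 against 270 and 1449 between naive grafts, 1240 and 2836 against 2874 and 976 between treated grafts, and 3343 and 4806 against 7953 and 1309 for the interaction. Over the alternatives the number of genes called ran from 6368 to 21614, 178 to 3524, 1 to 9393, 68 to 10938 and 1666 to 12465, in that order. Low counts limit Ncr1 and Tbx21, which lie near background, and 2 treated libraries per graft limit every comparison.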
